A study of Mus musculus with 23 samples.

Results

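The genes described here are 10 antioxidant and detoxifying enzymes: Cat, Nqo1, Hmox1, Gclc, Gclm, Txnrd1, Srxn1, Sod1, Sod2 and Gpx1. They were chosen by name, as rows of the deposited expression table whose GENCODE symbol matched, and all 10 were found among its 14500 genes. The table gives bulk RNA-seq values of the tibialis anterior, which lifts the foot, in 23 libraries from female C57BL/6 mice fed ad libitum. Treated muscles were injected with 6-OHDA (6-hydroxydopamine, 50 mg/kg) repeatedly over 2 weeks and collected 2 weeks later. 6-OHDA enters sympathetic nerve endings through their noradrenaline transporter and yields reactive oxygen species as it oxidises. Sham muscles were not injected, so the toxin, its ascorbic acid vehicle and the injury by the needle cannot be told apart. Collection was at zeitgeber time (ZT) 0, when the light phase begins, or at ZT12, when it ends.

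Sham muscle of wild-type mice gave 4 libraries at ZT0 (ages 13 to 18 weeks) and 3 at ZT12 (12 to 18 weeks). Injected muscle of these mice gave 4 at ZT0 (15 to 16 weeks) and 4 at ZT12 (12 to 15 weeks). The other genotype, called RE-RE, is labelled Bmal1(stopFL/stopFL) with the transgenes Syt10-Cre(-/tg) and Hsa-Cre(-/tg). A stopped form of the clock gene Bmal1 (Arntl) is restored where a Cre acts, in skeletal muscle fibres for Hsa-Cre and in part of the brain, the central clock included, for Syt10-Cre. Other cells of the muscle keep the stopped form. RE-RE muscle has 2 libraries in each of its groups, from sham mice of 10 to 11 weeks at ZT0 and 11 weeks at ZT12, and 6-OHDA mice of 12 to 16 weeks at ZT0 and 15 to 18 weeks at ZT12. RE-RE sham mice were thus younger than RE-RE 6-OHDA mice, and age and treatment cannot be told apart there.

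Nrf2 (gene Nfe2l2) is a transcription factor that Keap1 holds in the cytoplasm and hands to the Cul3 ubiquitin ligase. Oxidants and electrophiles modify Keap1, Nrf2 then escapes degradation, pairs with small Maf proteins and binds antioxidant response elements near its targets. Because this control acts on the protein, the mRNA of Nfe2l2 or Keap1 is not a measure of it. Hmox1, Nqo1, Gclc, Gclm, Txnrd1 and Srxn1 are classical Nrf2 targets. Sod1, Sod2, Cat and Gpx1 are the core enzymes that remove superoxide and peroxide in muscle, and they answer to other factors as well.

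The promoter table from RefSeq (GRCm38.p6; 250 bases before to 50 after each listed start) holds windows for 8 members, 10 windows in all. The core of the response element was searched as TGAC, any 3 bases, then GC, on both strands. It is present in 4 of the 10 windows, 1 each of Gclm, Txnrd1, Sod1 and Srxn1, against 12.4% of all 32851 windows in the table. The clock's E-box, CACGTG, is in 0 of the 10 windows, against 7.15% of all. The 150 bases before the start of 4 members are shown. On the deposited scale Nqo1 and Sod1 fell in injected wild-type muscle (below), whereas Gclm and Txnrd1 did not pass the test. A difference in response between these genes was not tested, and with quantile normalization Gclm passed and Sod1 did not. Capitals mark the core, read here on the opposite strand.
Gclm (chr3:122245407-122245556, plus strand): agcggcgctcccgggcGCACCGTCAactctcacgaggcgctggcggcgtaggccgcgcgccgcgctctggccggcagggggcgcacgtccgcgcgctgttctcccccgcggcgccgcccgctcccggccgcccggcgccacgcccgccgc
Txnrd1 (chr10:82859056-82859205, plus strand): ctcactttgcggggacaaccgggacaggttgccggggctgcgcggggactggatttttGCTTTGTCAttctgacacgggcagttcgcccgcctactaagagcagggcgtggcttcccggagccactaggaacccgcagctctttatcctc
Sod1 (chr16:90220612-90220761, plus strand): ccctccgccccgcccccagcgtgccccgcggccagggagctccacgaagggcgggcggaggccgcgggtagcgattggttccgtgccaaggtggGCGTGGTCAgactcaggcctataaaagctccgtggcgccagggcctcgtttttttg
Nqo1 (chr8:107403206-107403355, minus strand): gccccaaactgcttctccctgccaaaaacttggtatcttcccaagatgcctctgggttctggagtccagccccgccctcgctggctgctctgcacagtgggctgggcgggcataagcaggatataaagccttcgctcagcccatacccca
The core starts 134 bases before the start site in Gclm, 92 before the second of 3 listed starts in Txnrd1 and 56 before it in Sod1. In Srxn1 it lies 28 bases after the start. A match is a description of the letters, not a measured site, and its absence from the Nqo1 window says only that these letters are not in it.

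The libraries hold 21.1 to 36.1 M reads assigned to genes, as recovered from the steps between low values. Muscle fibre genes were present in every library, at a summed level of 33142 to 63458 FPKM (fragments per kilobase of exon and per unit of sequencing depth) over 8 genes. Arntl was between 8.87 and 15.7 FPKM at ZT0 and between 1.23 and 4.07 at ZT12 in all genotypes and treatments. RE-RE 6-OHDA library 2 (ZT0) stood apart from the other injected muscles: 12 macrophage and leukocyte genes summed to 20.7 FPKM there, against 96.4, 326 and 364 in the other RE-RE 6-OHDA libraries and 32.9 to 106 in RE-RE sham muscle. RE-RE sham libraries 1 and 3 had the highest sums of their side, 82.2 and 106 FPKM. The residual SD of the median gene was 0.216 log2 units among wild-type libraries and 0.451 among RE-RE libraries. The fit uses 1 spread for both (0.304 for the median gene), which understates the error of RE-RE values and overstates that of wild-type values. Nothing in the labels says that libraries of a group came from separate mice except the ages, so p-values measure the spread between these libraries.

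All 10 members were expressed in every library. Sod1, the cytosolic superoxide dismutase (chromosome 16, 90220754 to 90226329), had the highest median level over the 23 libraries, 157 FPKM, followed by the mitochondrial enzyme Sod2 at 75.3. Gpx1, a glutathione peroxidase, had a median of 45.6 FPKM and Cat, the peroxisomal catalase, of 37.7. Txnrd1, the cytosolic thioredoxin reductase, stood at 20.9 FPKM, Srxn1, which repairs overoxidised peroxiredoxins, at 9.87 and Nqo1, a quinone reductase, at 8.79. The lowest were Gclc and Gclm, the catalytic and modifier subunits of the enzyme that starts glutathione synthesis, at 4.60 and 2.56 FPKM, and Hmox1, heme oxygenase, at 3.50. Sod1 was above Sod2, Cat above Txnrd1 and Txnrd1 above Srxn1 in 23 of 23 libraries, and Gclc was above Gclm in 23 of 23. The neighbours Gpx1 and Cat, Srxn1 and Nqo1, and Gclc and Hmox1 changed places between libraries, with the first above the second in 14, 11 and 13 of 23.

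**Figure D1:**
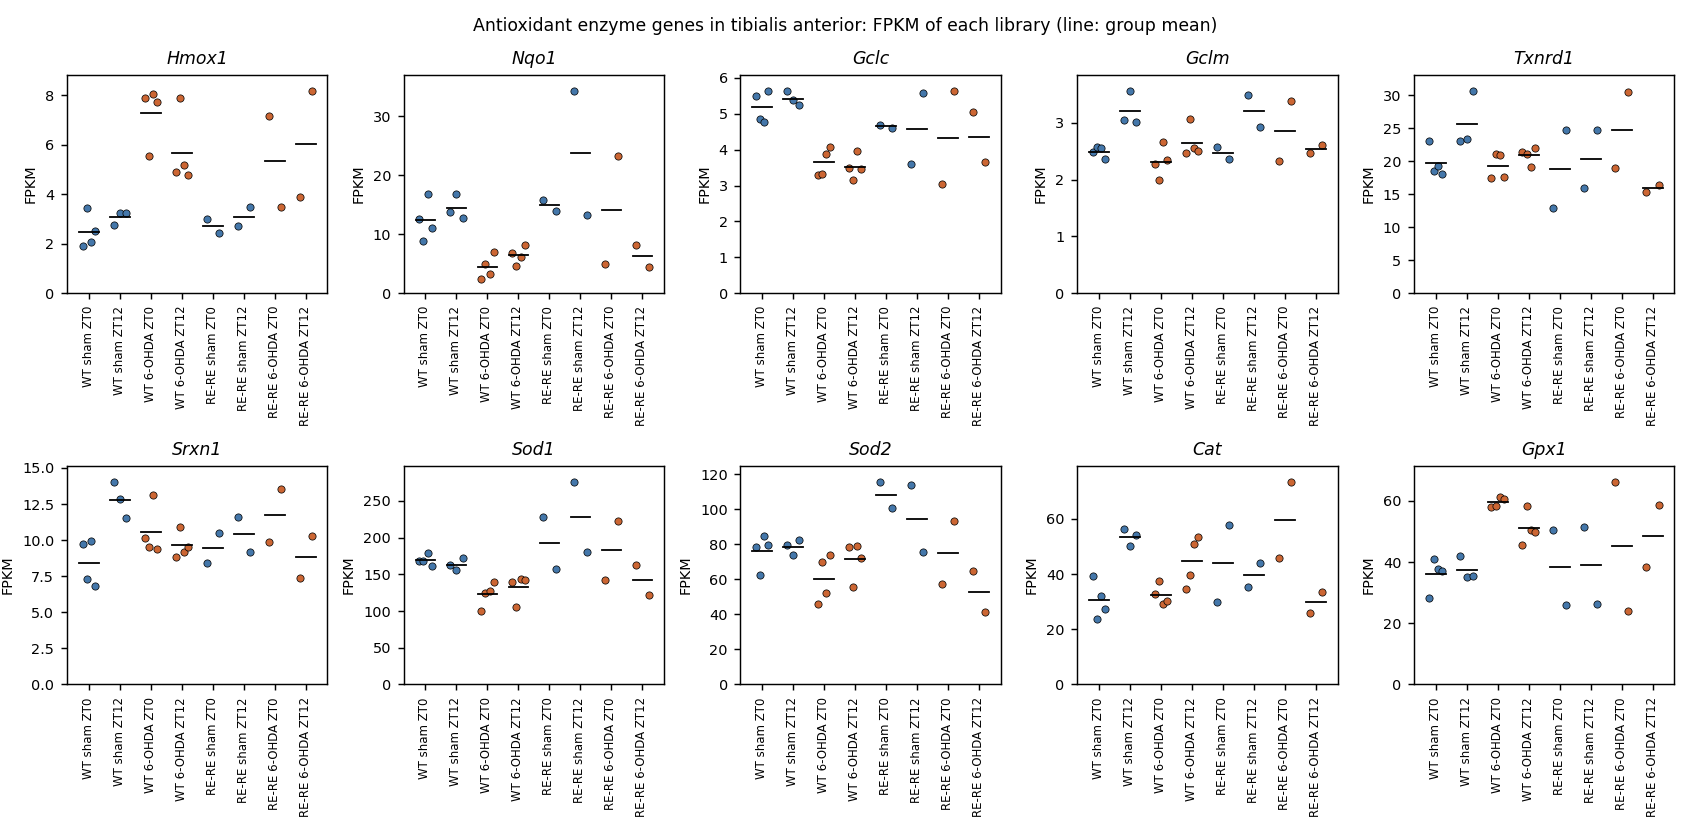
FPKM of the 10 members in each of the 23 libraries, by group, with sham in blue, 6-OHDA in orange and a line at the group mean. In wild-type muscle all 8 injected libraries lie above all 7 sham libraries for Hmox1 and Gpx1, and below them for Nqo1, Gclc and Sod1.

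Comparing 6-OHDA with sham muscle in wild-type mice asks what the injections left behind 2 weeks later. The members did not move together: Hmox1 and Gpx1 rose, Nqo1, Gclc and Sod1 fell, and the other 5 did not pass the test. The log2 differences ran from -1.37 for Nqo1 to 1.21 for Hmox1, with a median of -0.18 over the 10 members and of -0.04 over all 12820 genes tested. The threshold was a Benjamini-Hochberg adjusted p of 0.05 in limma, over all genes tested. The effect is the mean of the ZT0 and ZT12 differences. By that rule 34.8% of all genes passed, 18.8% higher and 15.9% lower, so 5 of 10 members passing is read against a muscle in which a large share of genes differed. The libraries of both treatments did not overlap for these 5 members, and for 13.9% of all genes.

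Hmox1 (chromosome 8, 75093621 to 75100589) degrades heme to biliverdin, carbon monoxide and iron. In wild-type sham muscle it was at 1.92, 3.43, 2.09 and 2.50 FPKM at ZT0 and at 2.78, 3.26 and 3.24 at ZT12. In 6-OHDA muscle it was at 7.89, 5.53, 8.03 and 7.72 FPKM at ZT0 and at 4.89, 7.87, 5.19 and 4.77 at ZT12. Every injected library was above every sham library, with 4 libraries close to 8 FPKM and 4 near 5 FPKM. Hmox1 rose 2.31-fold (log2 1.21 ± 0.19 SE, limma adjusted p = 0.00112), and it passed under every alternative setting and without any 1 wild-type library.

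Nqo1 (chromosome 8, 107388225 to 107403206), which reduces quinones without passing through a radical, moved the other way. Its sham levels were 12.6, 8.79, 16.8 and 11.1 FPKM at ZT0 and 13.7, 16.8 and 12.8 at ZT12. Its 6-OHDA levels were 2.35, 5.01, 3.27 and 7.05 FPKM at ZT0 and 6.78, 4.65, 6.19 and 8.08 at ZT12. All 8 injected libraries were below the lowest sham library. Nqo1 fell 2.59-fold (log2 -1.37 ± 0.30 SE, limma adjusted p = 0.00345), and it too passed under every setting and without any 1 wild-type library.

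The enzyme of glutathione synthesis lost transcript in its catalytic subunit. Gclc (chromosome 9, 77754535 to 77794485) ran from 4.77 to 5.64 FPKM in the 7 wild-type sham libraries (median 5.39) and from 3.17 to 4.08 in the 8 injected ones (median 3.48). Gclc fell 1.48-fold (log2 -0.57 ± 0.13 SE, limma adjusted p = 0.00341). With FPKM rescaled to the recovered reads of each library (own totals), the difference was -0.23 (adjusted p = 0.109). The modifier subunit Gclm (chromosome 3, 122245557 to 122270732) ran from 2.36 to 3.57 FPKM in sham and from 1.99 to 3.07 in injected muscle. Its ranges overlapped, and its log2 difference of -0.19 (95% confidence interval -0.40 to 0.01, adjusted p = 0.126) did not pass. With quantile normalization it was -0.31 and passed (adjusted p = 0.0224), and with array weights, which give less weight to libraries that vary more, it passed too (-0.18, adjusted p = 0.0279), where 59.4% of all genes passed. Gclm overlaps the pseudogene Gm6061 and the opposite transcript Gm17494, and reads of these cannot be told apart here.

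Both members of the thioredoxin system showed small differences. Txnrd1 (chromosome 10, 82833951 to 82897712) was at 18.0 to 30.6 FPKM in sham and 17.5 to 21.9 in injected muscle, with a log2 difference of -0.16 (interval -0.45 to 0.13). Srxn1 (chromosome 2, 152105516 to 152111376) was at 6.82 to 14.0 FPKM in sham and 8.86 to 13.2 in injected muscle, with a log2 difference of -0.04 (interval -0.30 to 0.21). These intervals leave out a change of Srxn1 as large as that of Gclc in either direction.

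The superoxide dismutases were lower in estimate, and Sod1 passed. Sod1 was at 168, 168, 179 and 161 FPKM at ZT0 and at 162, 155 and 172 at ZT12 in sham muscle. In 6-OHDA muscle it was at 100.1, 124, 127 and 139 FPKM at ZT0 and at 140, 105, 143 and 142 at ZT12. The 7 sham libraries were within 155 to 179 FPKM and all 8 injected ones below that range. Sod1 fell 1.31-fold (log2 -0.39 ± 0.13 SE, limma adjusted p = 0.0268). That call ended with quantile normalization (-0.11, adjusted p = 0.160), with own totals (-0.06, adjusted p = 0.569) and without any 1 of 5 wild-type libraries, sham 3, 5 or 7 or 6-OHDA 1 or 6 (adjusted p = 0.0503 to 0.0629). Sod1 shares sequence with Scaf4 on the opposite strand, and no strand setting is given in the sources used here. Sod2 (chromosome 17, 13006846 to 13040063) was at 62.4 to 84.6 FPKM in sham and 46.0 to 79.1 in injected muscle, and its log2 difference of -0.25 ± 0.15 SE (adjusted p = 0.186) did not pass, though it did with array weights (-0.26, adjusted p = 0.0199).

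Of both enzymes that remove hydrogen peroxide, Gpx1 rose and Cat did not pass. Gpx1 (chromosome 9, 108338903 to 108340343) was at 28.3, 40.9, 37.8 and 37.2 FPKM at ZT0 and at 42.0, 35.1 and 35.3 at ZT12 in sham muscle. In 6-OHDA muscle it was at 58.1, 58.4, 61.1 and 60.7 FPKM at ZT0 and at 45.6, 58.4, 50.4 and 49.9 at ZT12. The 4 injected ZT0 libraries were close to each other and all 8 were above every sham library. Gpx1 rose 1.51-fold (log2 0.59 ± 0.20 SE, limma adjusted p = 0.0267), and it passed under every alternative setting. The call ended without any 1 of 4 wild-type libraries, sham 1, 6 or 7 or 6-OHDA 6 (adjusted p = 0.0545 to 0.0591). These fits use the spread of both genotypes, and the residual SD of Gpx1 was 0.158 among wild-type and 0.737 among RE-RE libraries. Cat (chromosome 2, 103453849 to 103485160) was at 23.8 to 56.3 FPKM in sham and 29.2 to 53.4 in injected muscle, with a log2 difference of -0.09 (interval -0.41 to 0.23).

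**Figure D2:**
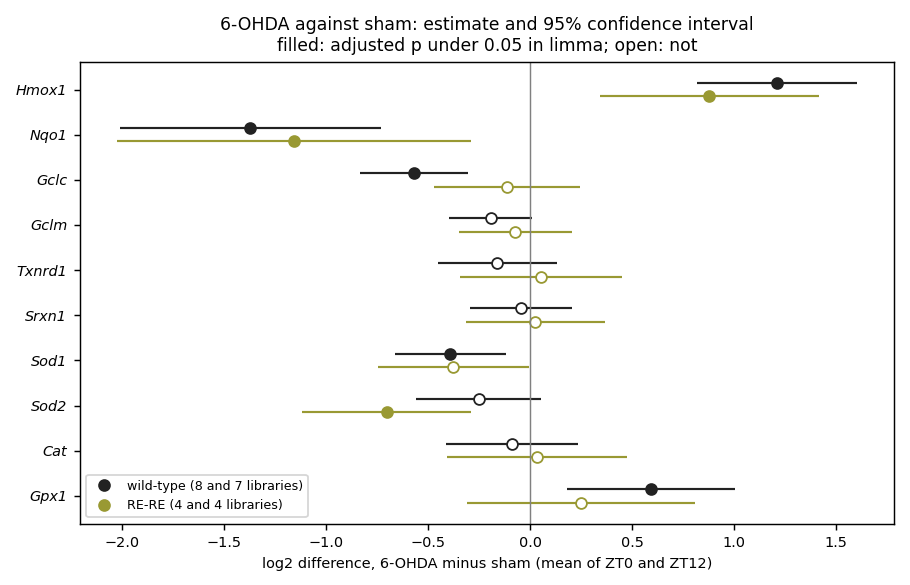
Log2 difference of each member between 6-OHDA and sham muscle, with its 95% confidence interval from limma, in wild-type and RE-RE mice; filled points passed at an adjusted p under 0.05. Hmox1 lies above 0 and Nqo1 below 0 in both genotypes, at 1.21 and 0.88 and at -1.37 and -1.16.

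The scale of the deposited values bears on small differences. The ratio of recovered reads to the reads implied by the FPKM unit was 1.15 to 1.32 in wild-type sham and 0.839 to 1.08 in wild-type 6-OHDA libraries. Scaling by own totals moved the median of all genes to 0.29 and the calls to 5111 higher and 467 lower, against 2414 and 2044 on the deposited scale. Own totals add 1 constant to all values of a library, so the distance of a gene from the median of all genes is nearly fixed by construction and is no second test. That distance was 1.25 for Hmox1, 0.63 for Gpx1, -1.33 for Nqo1, -0.52 for Gclc, -0.35 for Sod1, -0.21 for Sod2, -0.15 for Gclm and -0.12 for Txnrd1 on the deposited scale.

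Markers of other cell types moved with these changes. Of 11 tested macrophage and leukocyte genes, 10 rose in injected wild-type muscle and 0 fell (median 2.38). The whole list of 12 summed to 28.9 to 76.3 FPKM in sham and 168 to 590 in injected libraries, with none of its genes at 0 in any library. All 5 fibroblast genes rose (list sum 111 to 282 FPKM in sham and 390 to 1209 in injected muscle), as did 6 of 7 genes of regenerating fibres and satellite cells (24.8 to 41.8 and 42.1 to 165 FPKM). Of 8 muscle fibre genes 4 fell and 1 rose, and their sum was 48267 to 60572 FPKM in sham and 33142 to 47929 in injected muscle, without overlap. Of 5 erythroid genes 3 fell. Of 3 tested adipocyte genes 2 rose (median 2.55), as did 2 of 4 Schwann cell genes (0.84) and 2 of 5 endothelial genes (0.54), with 0 lower. In bulk muscle, fewer cells of a type and less RNA per cell cannot be told apart, and the part of these cell types in the members' changes was not tested.

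Within the injected wild-type libraries Hmox1 and the macrophage list can be read side by side. The libraries with 8.03, 7.89, 7.87 and 7.72 FPKM of Hmox1 had list sums of 590, 566, 440 and 369 FPKM. Those with 5.53, 5.19, 4.89 and 4.77 FPKM had sums of 243, 169, 246 and 168. RE-RE 6-OHDA library 2, with the list sum of 20.7 FPKM, was at 3.49 FPKM of Hmox1, 24.1 of Gpx1 and 23.2 of Nqo1. RE-RE 6-OHDA library 4, with a sum of 364, was at 8.19, 58.8 and 4.35. RE-RE 6-OHDA library 1, with a sum of 326, was at 7.16, 66.2 and 4.92. RE-RE sham libraries 2 and 4, with sums of 32.9 and 34.0, were at 2.45 and 3.50 FPKM of Hmox1. They were at 26.1 and 26.3 of Gpx1 and 13.9 and 13.2 of Nqo1. RE-RE sham libraries 1 and 3, with higher sums, were higher in Gpx1, but their Hmox1 and Nqo1 did not follow the list. Sham library 3, with a sum of 106, was at 2.70, 51.5 and 34.3, and sham library 1, with 82.2, at 3.0, 50.5 and 15.9. By contrast, 6-OHDA library 3, with a sum of 96.4, was at 3.90, 38.4 and 8.11.

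**Figure D3:**
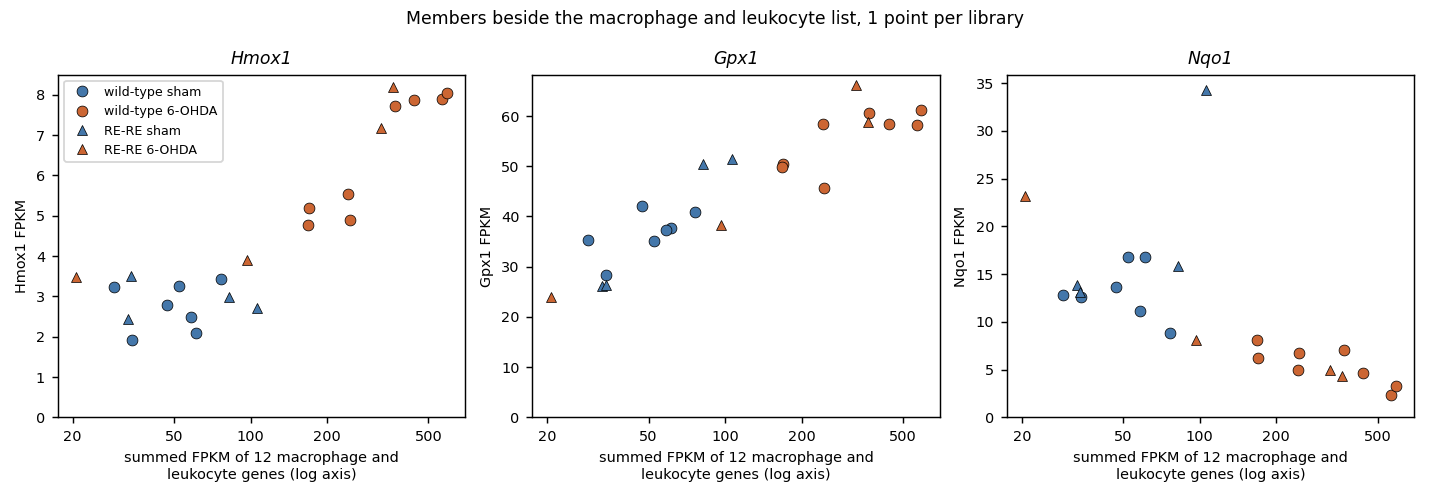
FPKM of Hmox1, Gpx1 and Nqo1 in each library against the summed FPKM of 12 macrophage and leukocyte genes (log axis), with circles for wild-type and triangles for RE-RE. The libraries share a treatment, so the axes are not independent; RE-RE 6-OHDA library 2, at a sum of 20.7 FPKM, lies within the sham libraries for Hmox1 and Nqo1 and just below them for Gpx1, at 24.1 FPKM.

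The other genes of the pathway give the setting in which the members changed. Of 10 regulators of Nrf2, 2 fell in injected wild-type muscle and 0 rose, against 2 higher and 1 lower with own totals. The 2 were Cul3, the scaffold of the ligase that degrades Nrf2 (log2 -0.67, limma adjusted p = 0.00717), and Rbx1, its RING subunit (-0.54, adjusted p = 0.00812). Nfe2l2 itself averaged 11.4 FPKM in sham and 12.2 in injected muscle (log2 0.09, adjusted p = 0.373, and 0.43 with own totals, adjusted p = 0.00227). Keap1 averaged 13.1 and 11.5 FPKM (log2 -0.20, adjusted p = 0.178).

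Of 24 other Nrf2 targets tested, 8 rose and 4 fell (11 and 3 with own totals), and 3 more of the list of 27 are not analysed here. Ftl1, the ferritin light chain that stores iron, rose from a mean of 104 to 257 FPKM (log2 1.26, limma adjusted p = 0.00144), though its near-identical copies may share reads. G6pdx, the first enzyme of the pentose phosphate pathway, rose (1.11), as did Ugdh, which supplies glucuronic acid for conjugation (0.96). Me1, the cytosolic malic enzyme and, like G6pdx, a source of NADPH, fell from 55.2 to 23.2 FPKM (-1.23, adjusted p = 0.00161). Blvrb, a biliverdin reductase, rose from 3.54 to 6.63 FPKM (0.88, adjusted p = 0.00354), but was picked after its values were seen. The targets thus moved in both directions, as the members did, and their median was -0.07.

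Of 22 other antioxidant enzymes, 3 rose and 7 fell in wild-type muscle, against 9 and 1 with own totals. Sod3, the secreted superoxide dismutase, rose from 1.83 to 4.78 FPKM (log2 1.46, limma adjusted p = 0.00585). Selenow, a small selenoprotein abundant in muscle, fell from 928 to 516 FPKM (-0.86, adjusted p = 0.00212). Glrx2, a mitochondrial glutaredoxin, and Msrb3, a methionine sulfoxide reductase, fell by 0.47 and 0.39 log2 units on the deposited scale and did not pass with own totals. Of 9 genes that make reactive oxygen species, 6 rose and 1 fell on both scales (median 1.29). Those with the smallest p were Cybb (2.66), Cyba (1.29), Ncf1 (1.56) and Rac2 (1.83), which encode parts of the NADPH oxidase of phagocytes. Of 12 peroxisomal genes 2 fell and 0 rose (3 rose and 0 fell with own totals), Pex11a and Pxmp2 (-0.58 each). The call of Pxmp2 (adjusted p = 0.0277) ended without any 1 of 5 wild-type libraries, sham 3, 6 or 7 or 6-OHDA 1 or 6. Of 11 genes of mitochondrial respiration 0 passed, and 2 rose with own totals. Leaving the 3 RE-RE libraries that stood apart out of the pooled spread gave more calls in wild-type muscle, with 5 of 10 regulators lower and 0 higher, 9 targets higher and 7 lower, 4 peroxisomal and 3 respiration genes lower, and 2 members higher and 3 lower. In that fit 50.5% of all genes passed, 26.7% of all genes in the lower direction.

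**Figure D4:**
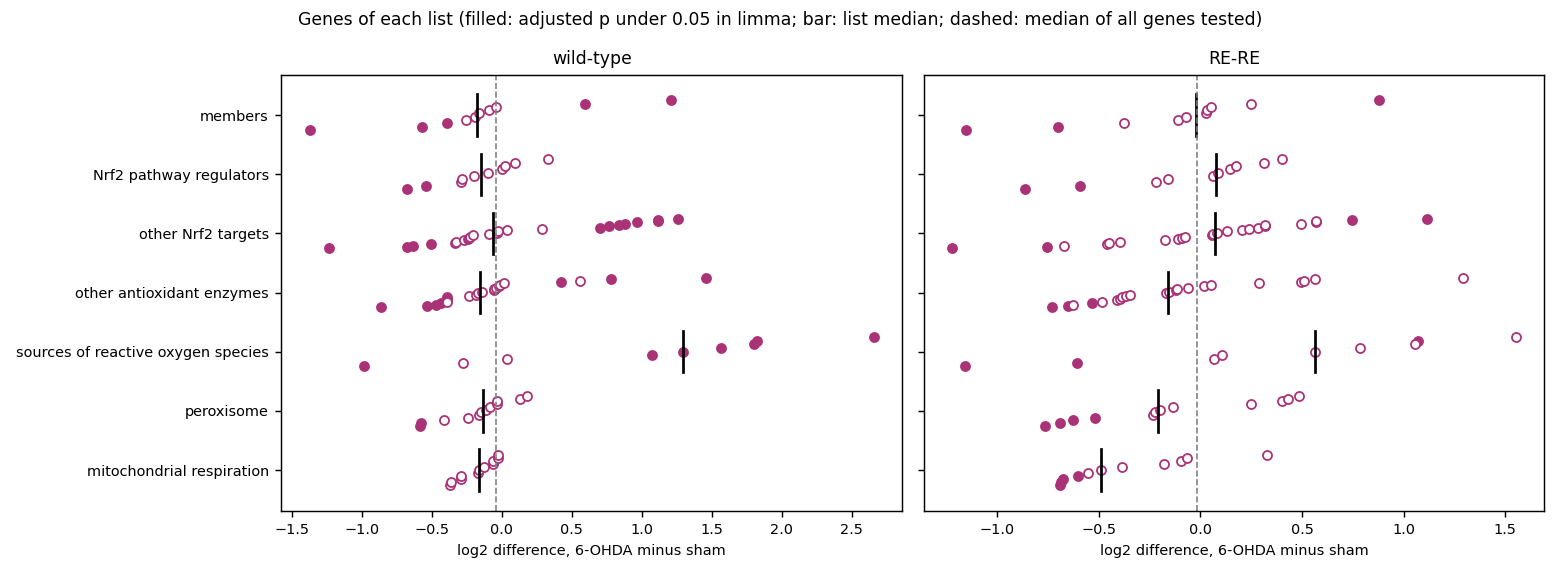
Log2 difference between 6-OHDA and sham muscle for each gene of the members and 6 other lists, in wild-type and RE-RE mice, on the deposited scale; filled points passed, bars are list medians and the dashed line is the median of all genes. The genes that make reactive oxygen species have a median of 1.29 in wild-type and 0.56 in RE-RE muscle.

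The same comparison in RE-RE mice has 4 libraries on each side. Hmox1 rose, Nqo1 and Sod2 fell, and the other 7 members did not pass, where 26.9% of all genes passed (11.9% higher, 15% lower). Hmox1 was at 3.0, 2.45, 2.70 and 3.50 FPKM in sham libraries 1 to 4 and at 7.16, 3.49, 3.90 and 8.19 in 6-OHDA libraries 1 to 4. It rose 1.84-fold (log2 0.88 ± 0.26 SE, limma adjusted p = 0.0240). Nqo1 was at 15.9, 13.9, 34.3 and 13.2 FPKM in sham and at 4.92, 23.2, 8.11 and 4.35 in injected libraries. It fell 2.23-fold (log2 -1.16 ± 0.41 SE, limma adjusted p = 0.0466). Sod2 was at 115, 101, 114 and 75.3 FPKM in sham and at 57.2, 93.2, 64.4 and 41.3 in injected libraries. It fell 1.63-fold (log2 -0.70 ± 0.20 SE, limma adjusted p = 0.0221). For each of the 3, injected library 2 lay within the range of the sham libraries and the other 3 injected libraries outside it, whereas 4.62% of all genes had no overlap.

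Single libraries decided these RE-RE calls. None of the 3 passed without sham library 1, sham library 3, 6-OHDA library 1 or 6-OHDA library 4, nor with array weights, with age as a covariate or in a fit of the RE-RE libraries alone. In these last 3 fits 0%, 0.0234% and 0.0156% of all genes passed, so the loss was not one of these members only. The share of all genes past the test also fell in each fit without 1 of the libraries just named, which leaves 1 library in a group. That bears on the calls of the list genes below too. Nqo1 also did not pass with no filter (adjusted p = 0.0502), quantile normalization (0.0652) or own totals (-0.77, 0.0718), nor with the replicate numbers as a block (0.0533). With the block 2 members and 24.7% of all genes passed. Several of the following fits leave 1 library in a group, whose spread is then taken from the other groups. Without 6-OHDA library 2, where 42.6% of all genes passed, 5 members did: Hmox1 (1.14), Nqo1 (-1.72), Sod2 (-0.88), Sod1 (-0.54) and Gpx1 (0.62). Without sham libraries 1 and 3 as well, Hmox1 was at 1.12, Gpx1 at 1.10 and Nqo1 at -1.32. Sod2 was at -0.68, Txnrd1 at -0.51 and Gclc at -0.48 there. The libraries left out had the highest sums of macrophage and leukocyte genes in RE-RE sham and the lowest in injected muscle. A larger rise of that list is thus fixed by the choice, and members that vary with the list are not free of it. Of 11 macrophage and leukocyte genes 0 passed in the full set. In the full set 6 of 7 genes of regenerating fibres and satellite cells rose in RE-RE muscle (median 4.04, against 2.19 in wild-type). Their sham level was lower: 4 of 7 were below wild-type sham (median -2.49), where 9.91% of all genes passed. Up to 2 of the list of 8 were at 0 FPKM in a RE-RE sham library. In injected muscle the list summed to 22.4 to 134 FPKM in RE-RE and 42.1 to 165 in wild-type. For the difference between the effects 0 of 7 passed, and the part of these genes in the members' changes was not tested.

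Sod1 was at 229, 157, 276 and 180 FPKM in RE-RE sham and 143, 222, 162 and 122 in injected libraries, with a log2 difference of -0.38 (adjusted p = 0.106). Gpx1 was at 50.5, 26.1, 51.5 and 26.3 FPKM in sham and 66.2, 24.1, 38.4 and 58.8 in injected libraries (0.25, adjusted p = 0.470). Sham libraries 1 and 3 lay within the range of injected wild-type muscle, and sham libraries 2 and 4 lay under every wild-type library. The residual SD of Gpx1 was 0.737 among RE-RE and 0.158 among wild-type libraries. Gclc (-0.11), Gclm (-0.07), Txnrd1 (0.05), Srxn1 (0.03) and Cat (0.03) gave small differences with intervals that include 0.

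Of the other lists in RE-RE muscle, 2 of 10 regulators fell, again Cul3 (log2 -0.86) and Rbx1 (-0.59). Own totals moved the median of all genes to 0.37 there, with 3984 of all 12820 genes higher and 476 lower. The counts with own totals below are read against that share. In that fit 5 regulators rose and 1 fell. Nfe2l2 was at -0.22 (adjusted p = 0.118) and Keap1 at 0.06 (adjusted p = 0.763, and 0.45 with own totals, adjusted p = 0.0427). Of 24 other targets 2 rose, Ftl1 (1.12) and Pgd (0.75), a pentose phosphate enzyme, and 2 fell, Me1 (-1.22) and Gstm2 (-0.76), a glutathione transferase. With own totals 9 targets rose and 1 fell. Of 22 antioxidant enzymes 3 fell, Msrb3 (-0.53), Msrb2 (-0.65), also a methionine sulfoxide reductase, and the mitochondrial peroxiredoxin Prdx3 (-0.73), against 6 higher and 0 lower with own totals. Cyba rose (1.07), and Maoa and Maob, the monoamine oxidases of the mitochondrial outer membrane, fell (-0.61 and -1.16; 3 of 9 such genes rose and 0 fell with own totals). Of 11 respiration genes 4, Ndufs1, Sdhb, Ndufa9 and Etfa, fell by 0.60 to 0.69 log2 units, with 1 higher and 0 lower with own totals. Of 12 peroxisomal genes 4 fell, Abcd3, Ehhadh, Pxmp2 and Pex11a (-0.52 to -0.76; 4 rose and 0 fell with own totals). Each of the 20 genes of these lists named here as rising or falling lost its call without any 1 of 4 or 5 RE-RE libraries, and all 20 lost it with array weights, with age as a covariate and with the compared groups alone.

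The difference between the effects in both genotypes was tested directly. None of the 10 members passed in limma (1 had an unadjusted p under 0.05), where 0.0702% of all genes did, and none passed with voom on recovered reads or without any 1 library. The difference was -0.33 for Hmox1 (95% confidence interval -1.0 to 0.33) and 0.21 for Nqo1 (-0.86 to 1.29). For Gclc it was 0.45 (0.01 to 0.90, unadjusted p = 0.0459, adjusted p = 0.329) and for Sod2 -0.45 (-0.97 to 0.06). It was -0.34 for Gpx1, 0.21 for Txnrd1, 0.12 for Cat, 0.12 for Gclm, 0.07 for Srxn1 and 0.01 for Sod1. Nfe2l2 differed by -0.31 (adjusted p = 0.290) and Keap1 by 0.26 (adjusted p = 0.512). These intervals are wide, and effects that differ between the genotypes by much of their own size lie within them for Hmox1 and Nqo1.

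Comparing ZT12 with ZT0 asks whether the members differ between the times. None of the 10 passed in uninjected wild-type muscle (3 had an unadjusted p under 0.05), where 0.647% of all genes passed, and none passed with voom on recovered reads. For Cat, Srxn1 and Gclm the 3 ZT12 values nevertheless lay above the 4 ZT0 values, which held for 5.74% of all genes. Cat was at 39.4, 23.8, 32.2 and 27.4 FPKM at ZT0 and 56.3, 50.0 and 54.0 at ZT12 (log2 0.82 ± 0.23 SE, limma adjusted p = 0.139). Srxn1 was at 9.71, 7.34, 9.93 and 6.82 FPKM at ZT0 and 14.0, 12.8 and 11.6 at ZT12 (0.61 ± 0.18 SE, adjusted p = 0.157). Gclm was at 2.48, 2.57, 2.56 and 2.36 FPKM at ZT0 and 3.04, 3.57 and 3.02 at ZT12 (0.36 ± 0.14 SE, adjusted p = 0.503). With array weights all 3 passed (adjusted p = 0.00283, 0.00198 and 0.0349), as did 5.51% of all genes. Without the 3 RE-RE libraries that stood apart, Cat passed (adjusted p = 0.0243), as did 1.69% of all genes. The other members differed by 0.37 (Txnrd1), 0.35 (Hmox1), 0.26 (Nqo1), 0.07 (Gclc), 0.06 (Gpx1), 0.05 (Sod2) and -0.05 (Sod1).

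Nfe2l2, which encodes Nrf2, was at 8.77 to 10.8 FPKM at ZT0 and 12.0 to 14.7 at ZT12 in wild-type sham muscle, without overlap. Its log2 difference was 0.46 ± 0.12 SE (limma adjusted p = 0.0926, and 0.00315 to 0.460 over 17 other settings, 3 of which passed). In RE-RE sham muscle it was at 11.5 and 11.6 FPKM at ZT0 and 14.2 and 17.1 at ZT12 (0.43, adjusted p = 0.674). In injected wild-type muscle it was at 11.1 to 13.4 FPKM at ZT0 and 11.8 to 13.7 at ZT12 (0.06, adjusted p = 0.963). Keap1 differed between the times by 0.06 in wild-type sham, 0.10 in wild-type 6-OHDA, -0.04 in RE-RE sham and -0.46 in RE-RE 6-OHDA muscle (unadjusted p = 0.0466 in the last, adjusted p = 0.368), and Nfe2l2 in the last by -0.26. Of the 88 genes of the other 6 lists, 0 passed in the wild-type sham comparison, 7 had an unadjusted p under 0.05 and 7 passed with array weights.

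In injected wild-type muscle none of the members passed between the times (0 had an unadjusted p under 0.05), where 0.671% of all genes did. These mice were 15 to 16 weeks old at ZT0 and 12 to 15 at ZT12, so time and age are largely confounded, also in the change of the time difference below. With age as a covariate 0.265% of all genes passed. Cat was at 32.9, 37.7, 29.2 and 30.4 FPKM at ZT0 and 34.5, 39.8, 50.7 and 53.4 at ZT12 (log2 0.44, 95% confidence interval 0.00 to 0.88). Srxn1 was at 10.1, 9.50, 13.2 and 9.35 FPKM and then 8.86, 10.9, 9.21 and 9.51 (-0.12, interval -0.46 to 0.22). With array weights 2 members were higher at ZT12, Cat (adjusted p = 0.0354) and Nqo1 (adjusted p = 0.0315), where 12.5% of all genes passed. In the unweighted fit Nqo1 was at 0.63, Sod2 at 0.25, Gclm at 0.19, Txnrd1 at 0.12, Sod1 at 0.11, Gclc at -0.05, Gpx1 at -0.23 and Hmox1 at -0.38. The change of the time difference with 6-OHDA was tested directly. It was -0.73 ± 0.24 SE for Srxn1 (interval -1.24 to -0.23, unadjusted p = 0.00656, adjusted p = 0.9998) and did not pass, where 0.0078% of all genes did. With array weights it passed (-0.96, adjusted p = 0.0343), as did 0.211% of all genes. It was -0.38 for Cat (interval -1.03 to 0.26) and -0.72 for Hmox1 (-1.51 to 0.06). The other 7 members ran from -0.29 (Gpx1) to 0.38 (Nqo1), with Txnrd1 at -0.25, Gclm at -0.17, Gclc at -0.12, Sod1 at 0.16 and Sod2 at 0.20. Nfe2l2 was at -0.40 (-0.74 to -0.07, unadjusted p = 0.0192, adjusted p = 0.9998) and Keap1 at 0.04.

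**Figure D5:**
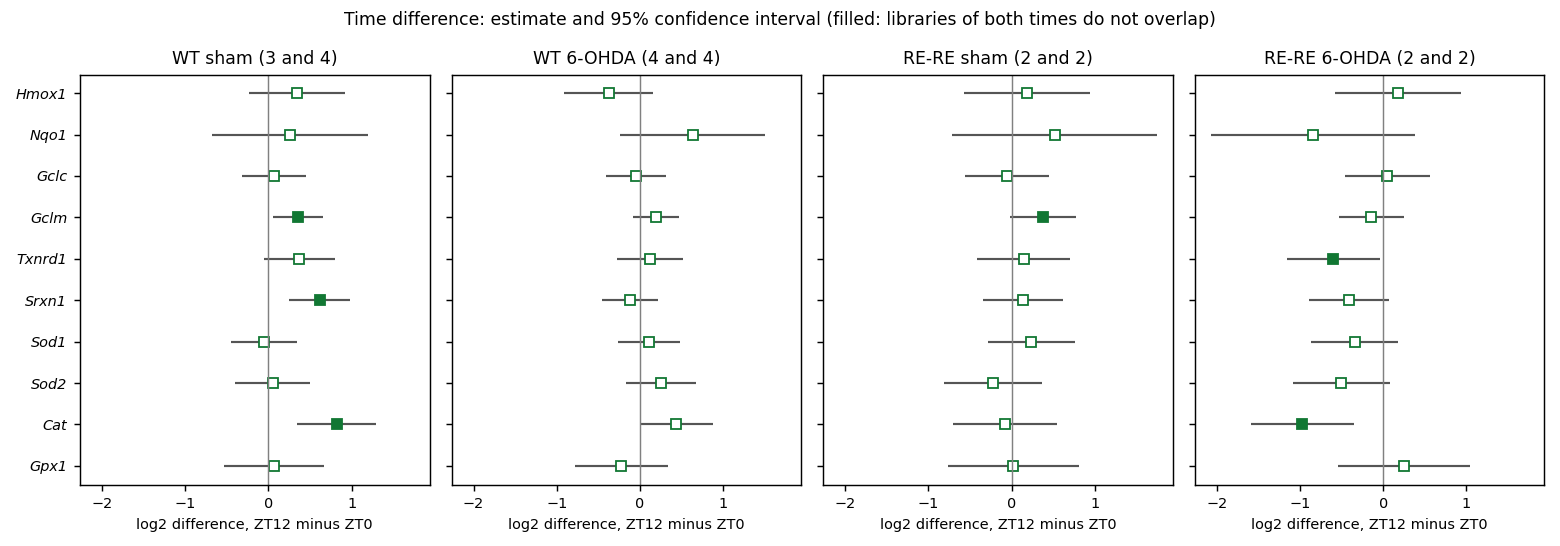
Log2 difference between ZT12 and ZT0 for each member in the 4 combinations of genotype and treatment, with 95% confidence intervals from limma; filled squares mark members whose libraries do not overlap between the times. Cat is at 0.82 in wild-type sham and at -0.97 in RE-RE 6-OHDA muscle.

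RE-RE muscle gave 2 libraries at each time. In sham muscle none of the members passed (0 had an unadjusted p under 0.05), where 0.0546% of all genes did. Cat was at 30.0 and 57.7 FPKM at ZT0 and 35.2 and 44.1 at ZT12 (log2 -0.08, interval -0.70 to 0.54). Gclm was higher at ZT12, at 2.57 and 2.36 and then 3.50 and 2.93 FPKM (0.38), without overlap, as were 7.37% of all genes. The other 8 members were between -0.22 (Sod2) and 0.52 (Nqo1), with Sod1 at 0.24, Hmox1 at 0.18, Txnrd1 at 0.15, Srxn1 at 0.14, Gpx1 at 0.02 and Gclc at -0.05. In RE-RE 6-OHDA muscle Cat was at 46.0 and 73.3 FPKM at ZT0 and 26.0 and 33.7 at ZT12 (-0.97 ± 0.30 SE, limma adjusted p = 0.182). Txnrd1 was at 19.0 and 30.4 FPKM and then 15.4 and 16.4 (-0.60, adjusted p = 0.348). Both were without overlap, as were 19.8% of all genes in that direction, and 0.109% of all genes passed. The higher ZT0 value of each came from library 2. Without it their differences were -0.64 and -0.26. Leaving out ZT0 library 1 leaves library 2, which stood apart, as the only ZT0 library, with a spread taken from the other groups, and Cat, Txnrd1 and Nqo1 then passed at -1.31, -0.94 and -1.96, as did 14.1% of all genes. In the full set Nqo1 was at -0.85, Sod2 at -0.50, Srxn1 at -0.41, Sod1 at -0.34, Gclm at -0.15, Gclc at 0.05, Hmox1 at 0.17 and Gpx1 at 0.25.

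Between genotypes none of the members passed in sham muscle (1 had an unadjusted p under 0.05), where 9.91% of all genes did. Sod2 averaged 101 ± 18.6 FPKM in RE-RE (SD, n = 4) and 77.2 ± 7.33 in wild-type sham muscle (SD, n = 7), a log2 difference of 0.37 (adjusted p = 0.152). Sod1 averaged 210.2 ± 52.9 and 167 ± 7.86 FPKM (0.31, adjusted p = 0.181). In both cases 3 of 4 RE-RE libraries were above every wild-type library. Without RE-RE sham library 4 both passed (0.52 and 0.46, adjusted p = 0.0411 and 0.0373), as did 37.6% of all genes, and without library 2 Txnrd1 passed (-0.48, adjusted p = 0.0310), as did 33.7%. Nqo1 differed by 0.44, Hmox1 by 0.08, Cat by 0.01, Gpx1 by 0.0021, Gclm by -0.0091, Srxn1 by -0.07, Gclc by -0.21 and Txnrd1 by -0.25. Nfe2l2 differed by 0.23 (adjusted p = 0.11) and Keap1 by -0.07 (adjusted p = 0.762). Of the 88 genes of the other lists 5 passed: Gpx3, the plasma glutathione peroxidase (log2 0.96), Gstm2 (0.97), Ehhadh, a peroxisomal enzyme of fatty acid oxidation (0.70), and Aox1, aldehyde oxidase (-0.72), chosen by rule, and Mgst1, a microsomal glutathione transferase (0.77), named after its values were seen. With age as a covariate Gpx3, Gstm2, Ehhadh and Aox1 did not pass (adjusted p = 0.102 to 0.202) and Mgst1 did (0.0425), and without the 3 RE-RE libraries that stood apart none of the 5 passed (adjusted p = 0.0793 to 0.572). RE-RE sham mice (10 to 11 weeks) were all younger than wild-type sham mice (12 to 18 weeks), so genotype and age cannot be told apart in this comparison. The age covariate takes its slope from age differences within groups and does not separate them. In injected muscle none of the members passed between genotypes (1 had an unadjusted p under 0.05), where 0.226% of all genes did, and without 6-OHDA library 1 Nqo1 passed (1.21, adjusted p = 0.0375), as did 5.94% of all genes. In the full set Nqo1 differed by 0.65, Sod1 by 0.32, Gclc by 0.24, Cat by 0.14, Gclm by 0.11, Srxn1 by 0.0034, Txnrd1 by -0.03, Sod2 by -0.08, Hmox1 by -0.25 and Gpx1 by -0.34. Nfe2l2 differed by -0.08 and Keap1 by 0.20.

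The gene most like each member over the 23 libraries, by Pearson's r of log2 FPKM, is given as a description, since libraries share treatment, scale and cell makeup. Nqo1 was most like Pfn2 (r = 0.97), Sod1 like Cwc15 (0.97), Sod2 like Tmem186 (0.97) and Hmox1 like Sgpl1 (0.96). Gpx1 was most like Ppib (0.93), Txnrd1 like Dnajb6 (0.91), Cat like Acot2 (0.90) and Gclc like Pnn (0.89). The best matches of Gclm and Srxn1 were weaker, Peli1 (0.79) and Rab21 (0.72). No member was the best match of another.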

How the data were processed

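The authors deposited 1 table of log2(FPKM + 0.01) for 14500 genes in 23 libraries, with a lowest log2 value of -6.64. The submitters' processing notes name GRCm38, edgeR 3.30.0, featureCounts 1.6.2, FastQC 0.11.8, HISAT2 2.1.0 and Trim Galore 0.5.0, with no order or settings. GENCODE M21 gave symbols for 14428 genes, and with them positions and exon lengths. Columns were matched to samples by name.

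Tests used limma 3.58.1 (R 4.3.3) on the deposited log2 values, with 1 mean for each of the 8 groups, a trended prior, genes at 1 FPKM or more in at least 2 libraries (12820 genes) and Benjamini-Hochberg adjustment over all of them. Numpy 2.4.6 and pandas 2.3.3 under python 3.11.15 made the tables, and matplotlib 3.10.9 the plots. Read numbers, used for depth and for own totals, were recovered from the steps between low values: 86.6% to 94.8% of values up to 20 reads were whole within 0.1 read. The fits were tested on simulated data.

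Members and lists were chosen with earlier results of these data known. All members are named in every comparison. From other pathway lists the text names, of the genes past the test, up to 4 with the smallest p for 6-OHDA and up to 2 elsewhere, with Nfe2l2 and Keap1 always. After removal of group means, same-numbered sham and 6-OHDA libraries correlated at -0.12 to 0.07 in wild-type muscle (7 pairs) and at 0.10 to 0.17 in RE-RE muscle (4 pairs, where 2 libraries a group make the deviations mirror each other). The numbers come from the labels, which give same-numbered mice different ages, except for wild-type number 7. The block is given beside the RE-RE result. Alternatives changed the pseudocount, filter, normalization, test, weights, covariate or libraries.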

Additional observations from a re-analysis of the deposited data

Results flagged for a closer look

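The 10 members were checked in the 3 groups of 4 libraries, 30 sets of values in all, and 4 sets had a library far from the other 3, where chance gives about 1 in 20. The sets are not independent, since 3 of the 4 were of 1 library. All 4 were in injected wild-type muscle, which gave most of the sets checked (both of its times, beside wild-type sham at ZT0 only). At ZT12, library 6 had the highest Hmox1, 7.87 FPKM against 4.77 to 5.19 in the other 3. The same library had the highest Gclm, 3.07 FPKM against 2.47 to 2.56, and the lowest Sod1, 105 FPKM against 140 to 143. Its macrophage and leukocyte list summed to 440 FPKM, against 168 to 246 in the other ZT12 libraries. At ZT0, library 2 had the lowest Hmox1, 5.53 FPKM against 7.72 to 8.03, and its list summed to 243 FPKM, against 369 to 590.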

How the results depend on the processing

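Members past the test in wild-type 6-OHDA muscle numbered 5, and 3 to 5 without 1 library, where 26% to 37% of all genes passed. They numbered 3 with own totals, where 43.5% of all genes passed, and 7 with array weights, where 59.4% did. On rescaling, members that had not passed changed sign: Cat was at 0.0924 with quantile normalization and at 0.24 with own totals, Srxn1 at 0.0033 and 0.29, and with own totals Gclm was at 0.14, Txnrd1 at 0.17 and Sod2 at 0.083. In RE-RE muscle the count of 3 was 0 with array weights, 0 with age as a covariate and 0 with the compared groups only. It also moved without 1 library or without the 3 that stood apart, in fits that left 1 library in a group. With array weights 3 members passed between times in wild-type sham muscle (1 without the 3 RE-RE libraries), 2 in wild-type 6-OHDA muscle and 1 for the change of the time difference. Leaving out 1 library gave 0 to 3 members between times in RE-RE 6-OHDA muscle, 0 to 2 between genotypes in sham and 0 to 1 in 6-OHDA muscle. The cause was not tested. With the replicate block 5 members passed in wild-type, where 33% of all genes did, and 2 in RE-RE, where 24.7% did. For the 2 interactions 0 members passed, where 0.109% (genotype) and 0.0156% (time) of all genes did. No paired analysis was possible because the numbers are not shared between times, and genotypes do not share mice, for the other comparisons. All other counts of members stayed within 1.5 times. Reads per member, from about 70 for Hmox1 upward, limit the precision of low members.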
